A study of Rattus norvegicus with 4 samples.

Results

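The fibroblast growth factor (FGF) receptors and ligands of rat OLN93 cells were described here as 10 gene symbols, out of 17327 symbols in the deposited counts. They were chosen by name and comprised the receptors Fgfr1, Fgfr2, Fgfr3, Fgfr4 and Fgfrl1, the ligands Fgf1, Fgf2, Fgf5 and Fgf7, and Nudt6, a gene that overlaps Fgf2. OLN93 cells are an oligodendroglial rat line that became immortal spontaneously, and the study asked how its transcripts change when the transcription factor Sox10 is lost. RNA came from 2 control samples, labelled Sox10-positive, and from 2 Sox10-deficient samples, clone A and clone B, in which CRISPR/Cas9 had been directed at Sox10 with a different guide RNA for each clone. All samples were grown in DMEM with fetal calf serum and antibiotics, and no added FGF is listed. Each Sox10-deficient sample was 1 clone, and the labels call the controls biological replicates whereas the methods call them clones. The p-values rest on the spread between these samples, which for the controls may be technical. Effects of a clone or its guide RNA cannot be told apart from those of Sox10 loss.

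FGFs are secreted proteins that bind receptor tyrosine kinases together with heparan sulfate chains at the cell surface. The bound receptors phosphorylate adaptors such as Frs2, which pass the signal to the Ras-MAPK cascade, to PI3 kinase and Akt and, through Plcg1, to calcium, whereas sprouty proteins and the phosphatase Dusp6 act back on the cascade. In the oligodendrocyte lineage, Fgf2 is known as a mitogen of progenitor cells, Fgfr3 as a receptor of progenitors and Fgfr2 as the receptor of maturing cells.

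Library totals ranged from 60951 to 104017 deposited counts, so that 1 count corresponded to between 9.68 and 16.1 CPM, that is counts scaled per M counts of a library after edgeR's trimmed mean of M-values (TMM) normalization. A value of 3 counts, between 29.0 and 48.2 CPM, was taken as the floor for reading a gene as expressed. This floor is a limit of the deposited counts, and a gene under it may still be expressed. The libraries keep the strand, but the strand setting of the counting is not given in the sources used here, and per library the deposited counts were 0.384% of the authors' mean in the median gene. Whether the reads counted for a gene lay on its own or on the opposite strand was not settled, and this limit holds for every count, CPM and fold change given here. CPM are not corrected for transcript length, so levels were compared between libraries and not between genes. Sox10 had 28 and 64 counts in controls 1 and 2, none for clone A and 14 for clone B. Its log2 fold change was -2.74 (standard error, SE, 0.62, edgeR, quasi-likelihood test, Benjamini-Hochberg adjusted p = 0.0172), and -1.75 without clone A. Of 12 oligodendroglial markers, Sox10 among them, 11 had counts and Mag had none. Mog had 54 counts although its mean in the authors' table was 0. The 12 markers summed to 3051 and 2769 CPM in the controls against 1920 and 1769 CPM in the clones. Sox10 itself held 450 and 620 CPM of this sum in the controls, 0 in clone A and 159 CPM in clone B. Of the 7 markers that were tested, 5 had a lower and 2 a higher fitted value. The summed level of 5 Schwann cell and neural crest markers was 1156 and 1133 CPM against 289 and 113 CPM, that of 7 astrocyte markers 434 and 213 CPM against 34.7 and 56.7 CPM, with 3 of the 7 detected and S100b, which oligodendroglial cells also express, as the bulk of the control counts, and that of 7 fibroblast and mural cell markers 626 and 716 CPM against 1006 and 544 CPM. Cspg4, which is also in the oligodendroglial list, made up 671 of the 1006 CPM in clone A, and without it the fibroblast and mural cell sum was 369 and 416 CPM in the controls against 335 and 136 CPM in clones A and B. Of 7 neuron and 7 microglia markers, 2 each had counts, with 128 and 174 CPM against 104 and 45.4 CPM for neurons and 64.2 and 136 CPM against 57.8 and 45.4 CPM for microglia. Aqp4 and Slc1a3 of the astrocyte list, Rbfox3 and Syt1 of the neuron list and Cx3cr1 and P2ry12 of the microglia list were at 0 in all libraries. The part of these markers in the values of the FGF genes was not tested.

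Among the receptors, Fgfr3 and Fgfrl1 were lower in both clones than in both controls, Fgfr1 was found in every library with groups that overlapped, and Fgfr2 and Fgfr4 had no counts. None of the receptors passed the adjusted test on the deposited counts. The authors' paper, however, lists Fgfr3 and Fgfrl1 among its candidate Sox10 target genes of oligodendrocyte precursor cells. Such candidates were lower in the Sox10-deficient cells by the authors' own test and had Sox10 bound nearby in earlier data. The lack of a call here therefore does not show that these receptors were unchanged. Among the ligands, Fgf2 had 9 of its 10 counts in the clones, Fgf1 had 6 counts, 4 of them in clone B, Fgf7 had 2 counts and Fgf5 none. Nudt6 was the single member that passed the adjusted test, and it rose 3.36-fold in the clones (95% interval of the fit 1.86 to 6.08, n = 2 per group). This call was lost with DESeq2 (adjusted p = 0.618), in edgeR without control 2 and in edgeR without clone B. Leaving out 1 library moved the log2 fold change of Nudt6 between 1.21 and 2.97. DESeq2 (unadjusted p = 0.216 from its Wald test) and the edgeR fit without control 2 also lost the call of Sox10, the targeted gene.

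**Figure D1:**
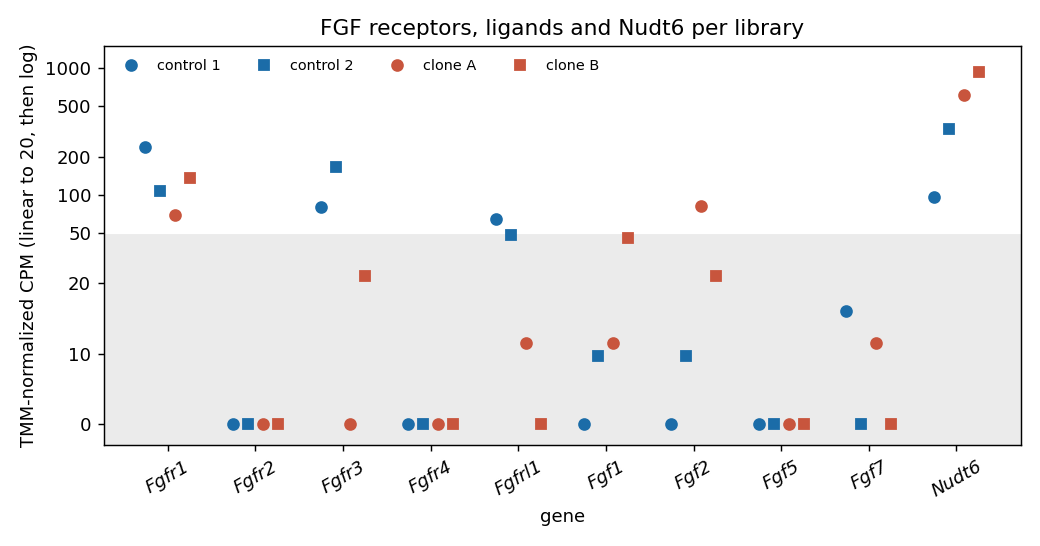
Level of each of the 10 genes in each library, in TMM-normalized CPM on an axis that is linear up to 20 and logarithmic above, with the 2 control libraries in blue, the 2 Sox10-deficient clones in red, and the range up to 3 counts in the shallowest library in grey. Nudt6 lies between 613 and 941 CPM in the clones and between 96.4 and 329 CPM in the controls, whereas Fgfr3 and Fgfrl1 lie in the grey range in both clones.

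Fgfr1 (ENSRNOG00000016050) encodes the FGF receptor that is expressed widely across tissues. It had 15 counts for control 1, 11 for control 2, 6 for clone A and 12 for clone B, which corresponded to 241, 106, 69.4 and 136 CPM. Clone A was the lowest library, but clone B lay between the controls, so that the groups overlapped. The mean was 174 ± 95 CPM (SD, n = 2) in the controls and 103 ± 47.2 CPM (SD, n = 2) in the clones. The log2 fold change was -0.68 (SE 0.62, 95% interval -1.98 to 0.63, edgeR over 2438 genes, adjusted p = 0.718), so a fall to 0.253 times the control level and a rise to 1.55 times were both within the interval. The estimate moved to -0.07 without control 1 and to -1.24 without clone B, and to -0.27 without clone A. In this fit 61 genes were called lower, which is 2.5% of the tested genes, and 29 were called higher, which is 1.19%.

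Fgfr3 (ENSRNOG00000016818) encodes a receptor tyrosine kinase that in the central nervous system is expressed in glial progenitors and astrocytes. It had 5 counts for control 1, 17 for control 2, none for clone A and 2 for clone B, or 80.3, 165, 0 and 22.7 CPM. Both clones were under the floor and both controls above it, with a mean of 122 ± 59.6 CPM (SD, n = 2) in the controls against 11.3 ± 16.0 CPM (SD, n = 2) in the clones. Pooled over each group, 22 control counts stood against 2 clone counts, a level 11.6 times higher in the controls with an exact 95% counting interval of 2.85 to 102. Such intervals cover counting error only and compare these libraries rather than the conditions.

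Fgfr3 did not pass edgeR's filter on low counts and was therefore not part of the fit over 2438 genes. With all 5964 genes that had at least 10 counts in the 4 libraries together, its log2 fold change was -3.31 (SE 1.03, 95% interval -5.46 to -1.16), with an unadjusted p of 0.00448 and an adjusted p of 0.162 from edgeR's quasi-likelihood test. Of these 5964 genes, 4.69% were lower by an unadjusted p of 0.05 or less together with a change of at least 2-fold, 0.755% were lower by the adjusted p, and in 19.0% both clones lay under both controls. Fgfr3 thus met the unadjusted rule and missed the adjusted one, and it passed the filter only through its control counts. Without clone A the estimate was -2.43 (unadjusted p = 0.0482 from the same edgeR test) and without control 2 it was -2.65 (unadjusted p = 0.0963 from the same edgeR test). Without control 1 it was -3.71, and without clone B it was -6.44, a value that was fitted against the 0 counts of clone A and depends on the prior count. With DESeq2 the value was -3.45 and its adjusted p 0.506.

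Fgfrl1 (ENSRNOG00000024207) encodes an FGF-binding membrane protein that lacks the tyrosine kinase domain of the other receptors. It had control counts of 4 and 5, 1 for clone A and none for clone B, or 64.2, 48.4, 11.6 and 0 CPM. Both clones were under the floor, and the controls were 1 and 2 counts above it. The pooled level was 9.49 times higher in the controls, with an exact 95% counting interval of 1.32 to 416 from 9 counts against 1. Over the 5964 genes the log2 fold change was -2.97 (SE 1.5, 95% interval -6.11 to 0.16, edgeR, adjusted p = 0.566), so that no difference could be called from so few deposited counts. Leaving out clone B gave -2.12, and leaving out clone A, with clone B then alone at 0 counts, gave -5.27.

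Fgfr2 and Fgfr4 had 0 counts in all 4 libraries, which allows up to 18.1 CPM in the pooled controls and 17.2 CPM in the pooled clones. The authors' mean normalized count, a single value per gene over all libraries in their deposited table, was 19 for Fgfr2 and 0 for Fgfr4. The deposited counts per library were 0.384% of that mean in the median of 5353 genes with a mean of at least 500. At this median share 0.292 counts of Fgfr2 would have been due in the 4 libraries together, so that 0 counts do not show its absence. The 5 receptors together summed, without correction for length, to 385 and 319 CPM in the controls, 80.9 CPM in clone A and 159 CPM in clone B, and Fgfr1 was the larger part of it in both clones.

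The sequence before the annotated start site is shown for both receptors whose groups did not overlap, Fgfr3 and Fgfrl1, because the core letters of Sox binding sites can be looked for in it. These are RefSeq sequences of the rat assembly GRCr8, whereas the counts were made on rn5, and each run holds the 250 bases upstream of the start site, 5′ to 3′ on the strand of the gene. The letters searched were ACAAAG and ACAATG on both strands, where the complements read CTTTGT and CATTGT, and a match is printed in capitals. The stretch of Fgfr3 lies at chr14:81227210-81227459 on the minus strand and that of Fgfrl1 at chr14:1166335-1166584 on the minus strand.
Fgfr3: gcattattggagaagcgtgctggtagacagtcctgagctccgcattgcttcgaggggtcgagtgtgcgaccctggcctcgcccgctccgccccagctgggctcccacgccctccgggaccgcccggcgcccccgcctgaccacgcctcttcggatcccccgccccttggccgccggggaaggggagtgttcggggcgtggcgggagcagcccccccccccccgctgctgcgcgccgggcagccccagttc
Fgfrl1: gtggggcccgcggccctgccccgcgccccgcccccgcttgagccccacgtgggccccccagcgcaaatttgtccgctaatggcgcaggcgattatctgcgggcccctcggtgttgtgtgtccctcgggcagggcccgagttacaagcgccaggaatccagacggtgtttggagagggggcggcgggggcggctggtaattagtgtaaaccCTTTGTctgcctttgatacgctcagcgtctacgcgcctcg
The run of Fgfrl1 held CTTTGT 40 bases before the start site, and the run of Fgfr3 held neither motif. Both runs were rich in G and C, at 74.4% for Fgfr3 with 26 CpG and 67.2% for Fgfrl1 with 25 CpG, where the median over 33469 rat promoters of the same length was 51.2% (quartiles 44.0% and 60.0%). A start site was found in the table for 9 of the 10 genes, not for Fgfr1, and 3 of these 9 held the letters, namely Fgfrl1, Fgf1 and Fgf5. Over all 33469 promoters, 16.3% held ACAAAG, 11.1% held ACAATG and 25.3% held either. A match of 6 letters is a description of the sequence and not a binding site.

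Fgf2 (ENSRNOG00000017392) encodes the basic FGF that is added to cultures of oligodendrocyte progenitors as a mitogen. It had no counts for control 1, 1 for control 2, 7 for clone A and 2 for clone B, or 0, 9.68, 80.9 and 22.7 CPM. Clone A was the only library above the floor, although both clones were higher than both controls. The mean was 4.84 ± 6.84 CPM (SD, n = 2) in the controls and 51.8 ± 41.2 CPM (SD, n = 2) in the clones. The pooled level was 8.53 times higher in the clones, with an exact 95% counting interval of 1.18 to 374 from 9 counts against 1. Over the 5964 genes the log2 fold change was 2.86 (SE 1.55, 95% interval -0.36 to 6.09, edgeR, adjusted p = 0.607). It was 1.70 without clone A, 3.48 without clone B, 2.26 without control 1 and 5.08 without control 2, which leaves control 1 at 0 counts.

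Fgf1 encodes the acidic FGF, which can bind all FGF receptors. It had control counts of 0 and 1 against 1 count in clone A and 4 in clone B. Only clone B, at 45.4 CPM, was above the floor of its own library, which was 34.0 CPM. Control 2 and clone A had the same single count. The pooled level was 4.74 times higher in the clones, with an exact 95% counting interval of 0.530 to 224, which includes no difference. In the GRCr8 annotation Fgf1 overlaps Arhgap26 on the opposite strand. Fgf7, the keratinocyte growth factor, had 1 count each in control 1 and clone A and none in the other two libraries, a ratio of 0.948 with a counting interval of 0.0121 to 74.4. Fgf5, a ligand known for the control of hair growth, had no counts in any library, and its mean in the authors' table was 0. The means of Fgf1 and Fgf7 in that table were 170 and 53, for which 2.61 and 0.814 counts would have been due at the median share.

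**Figure D2:**
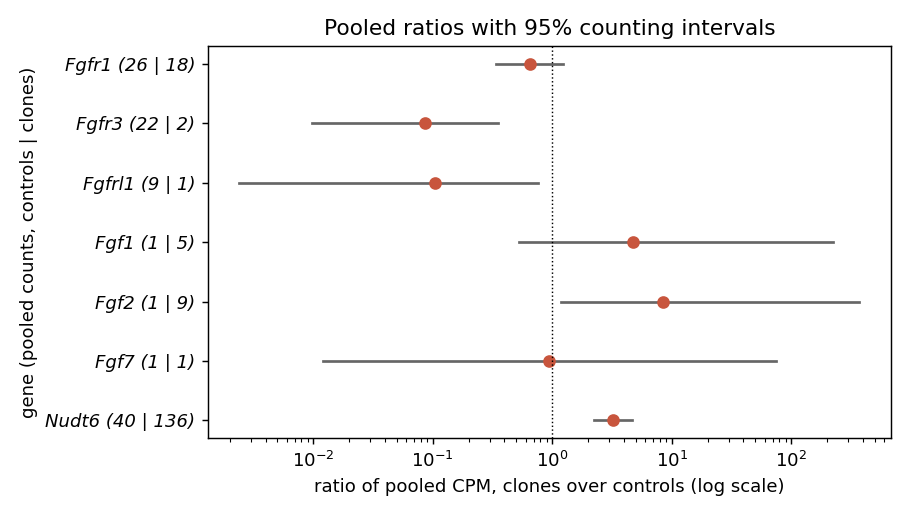
Ratio of the pooled CPM of the 2 Sox10-deficient clones to that of the 2 controls for the 7 genes with any count, on a log axis, with exact 95% intervals for counting error alone and the pooled counts (controls | clones) beside each gene. The intervals of Fgfr3 and Fgfrl1 lie under 1, those of Fgf2 and Nudt6 above 1, and those of Fgfr1, Fgf1 and Fgf7 include 1.

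Nudt6 (ENSRNOG00000017420) encodes a protein of the Nudix hydrolase family, and its transcript is known as a natural antisense RNA of Fgf2. It had 6 counts for control 1, 34 for control 2, 53 for clone A and 83 for clone B, or 96.4, 329, 613 and 941 CPM. All libraries were above the floor and the lowest clone was above the highest control, and the controls spread more widely relative to their mean than the clones. The mean was 213 ± 165 CPM (SD, n = 2) in the controls and 777 ± 232 CPM (SD, n = 2) in the clones, and the pooled ratio was 3.22 with an exact 95% counting interval of 2.25 to 4.71. The log2 fold change was 1.75 (SE 0.41, 95% interval 0.89 to 2.60, edgeR over 2438 genes, adjusted p = 0.0197). In the fit over 5964 genes, where 0.319% of genes were called higher by the adjusted p, 3.74% by the unadjusted p with a 2-fold change, and 20.5% had both clones above both controls, the adjusted p of Nudt6 was 0.0397. The direction was the same without each library in turn, but the call rested on 2 of them. Without control 2 the log2 fold change was 2.97 with an adjusted p of 0.153, and without clone B it was 1.42 with an adjusted p of 0.0858, both from edgeR's quasi-likelihood test. In the fit over 5964 genes, leaving out a library gave edgeR adjusted p-values between 0.165 and 0.521. DESeq2 gave 1.83 with an adjusted p of 0.618.

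Of the 10 genes, 5 had at least 10 counts. Fgfr3, Fgfrl1 and Fgf2 reached them only through the group in which they were higher, so that the order of their groups and their fitted values are a description.

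The counts of Nudt6 and Fgf2 were set beside the authors' mean because both genes lie on opposite strands of the same locus. Their upstream sequences are shown to give the orientation of this pair in GRCr8: the stretch of Fgf2 lies at chr2:122164204-122164453 on the plus strand and that of Nudt6 at chr2:122234300-122234549 on the minus strand, so that the genes are transcribed towards each other, and their annotated spans overlap.
Fgf2: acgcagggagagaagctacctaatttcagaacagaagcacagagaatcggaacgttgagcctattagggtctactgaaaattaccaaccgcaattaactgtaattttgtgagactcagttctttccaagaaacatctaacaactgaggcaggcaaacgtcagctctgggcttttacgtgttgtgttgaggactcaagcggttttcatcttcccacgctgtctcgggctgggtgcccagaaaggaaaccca
Nudt6: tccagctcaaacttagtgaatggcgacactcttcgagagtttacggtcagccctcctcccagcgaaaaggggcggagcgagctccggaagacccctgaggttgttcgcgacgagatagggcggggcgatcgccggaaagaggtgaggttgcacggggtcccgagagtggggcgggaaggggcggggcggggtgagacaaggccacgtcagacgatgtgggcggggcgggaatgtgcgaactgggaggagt
Neither run held ACAAAG or ACAATG on either strand. The run of Nudt6 had a GC content of 64.4% with 24 CpG and that of Fgf2 46.8% with 9 CpG.

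For the 6 genes with counts other than Nudt6, the share of the authors' mean lay between 0.638 and 2.47 times the median of 0.384%. Fgfr1 had 0.291% of its mean of 3782, Fgfrl1 0.245% of 1021, Fgf2 0.702% of 356 and Fgfr3 0.949% of 632. Nudt6 had 83.0% of its mean of 53, with an exact 95% counting interval of 71.2% to 96.2%, which is 216 times the median share. At that share 0.814 counts of Nudt6 would have been due, where 176 were found. Of 6825 genes with a mean of at least 20 and a place in the annotation, 11 had a higher share than Nudt6. In the authors' table the mean of Fgf2 was 6.72 times that of Nudt6, whereas in the deposited counts Nudt6 had 17.6 times as many as Fgf2.

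**Figure D3:**
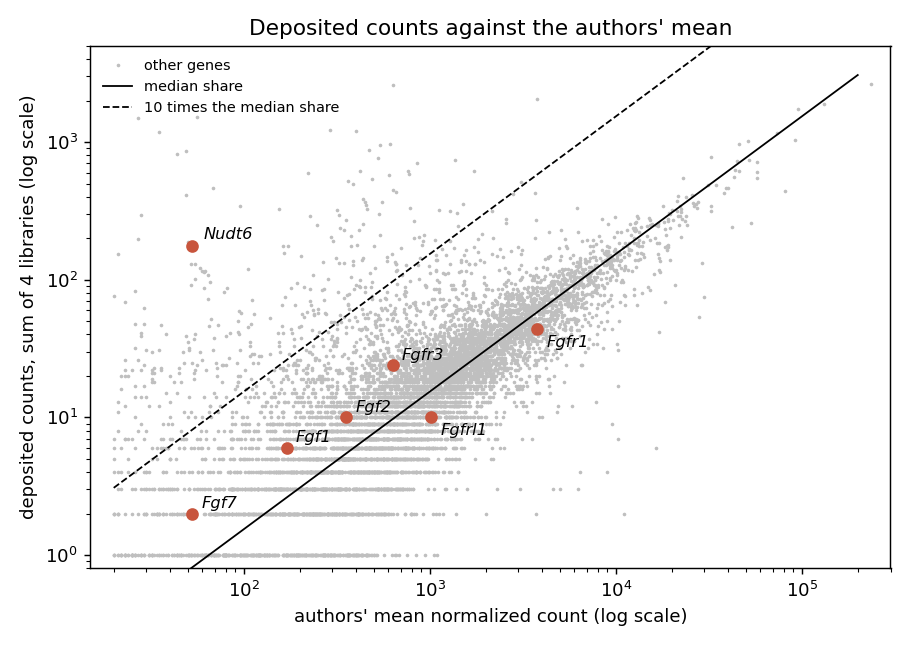
Deposited counts summed over the 4 libraries against the authors' mean normalized count for genes with a mean of at least 20, both on log axes, with the median share as a solid line and 10 times that share as a dashed line. Fgfr1, Fgfr3, Fgfrl1, Fgf1, Fgf2 and Fgf7 lie near the solid line, and Nudt6 lies far above the dashed one with 176 counts at a mean of 53.

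Nudt6 shared this excess with other genes, with and without a partner on the opposite strand. Among the 6825 genes, 258 had at least 10 times the median share. Of these, 107 (41.5%) overlapped a gene on the opposite strand, against 9.46% of the other 6567. The rest of the 258 had no such partner in this search. Over 950 genes with 1 opposite partner, deposited counts had a Spearman correlation of 0.578 with the own mean and 0.431 with the partner's mean. The Nudt6 counts per library were 12.4% of the Fgf2 mean. The cause of the excess was not tested. With the strand setting unknown, reads from Nudt6 and from its partner on the other strand cannot be told apart, and the rise of Nudt6 is a rise of reads counted for that symbol. Together, Fgf2 and Nudt6 had 96.4 and 339 CPM in the controls, 694 CPM in clone A and 964 CPM in clone B. Within the clones both genes were not ordered alike, since clone A was higher for Fgf2 and clone B for Nudt6.

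The 3 tested genes with the profile most like that of Fgfr1 over the 4 libraries were Laptm4a, Hsp90aa1 and Bub1b, at Euclidean distances of 0.087, 0.089 and 0.092 between centred log2 CPM. Those most like Nudt6 were Mtif2, Trerf1 and Abcb1b, at distances of 0.296, 0.339 and 0.406. Mtif2 had control counts of 0 and 6 against clone counts of 10 and 13, and its deposited counts were 16.7 times the median share. With 4 libraries and counts of this size, a close profile is a description only.

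The pathway around the receptors and ligands was described by 124 genes in 9 lists, of which 118 were in the counts and 29 could be tested. None of them was called lower or higher by the adjusted p of edgeR's quasi-likelihood test, and DESeq2 called 0 of the 45 that had an adjusted p. At an unadjusted p under 0.05 edgeR gave 3 lower and 4 higher genes, beside 200 and 159 of all 2438 genes. Over the 29 genes the median log2 fold change came to 0.14, against -0.01 over all tested genes. Over genes with at least 10 counts, 59 pathway genes were tested, none was called, 6 were lower and 6 higher at an unadjusted p under 0.05 (309 and 265 of all 5964), and the median was -0.07. Among these, Fgfr3, Agrn, Grb14, Hs3st1 and Spry4 reached 10 counts only through the group in which they were higher, so these numbers are a description.

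Of 18 ligands, 13 had no counts, and the 4 FGF homologous factors, which act inside the cell, had none either. Fgf22 was the only ligand in the fit over 2438 genes, with control counts of 11 and 12 and clone counts of 16 and 17 (log2 fold change 0.41, SE 0.50, edgeR, adjusted p = 0.811). Its mean in the authors' table was only 2, so that these counts stood at 1823 times the median share. Among the symbols held by both the counts and the authors' table, none overlapped Fgf22 on the opposite strand in GRCr8. Other genes of the annotation were not searched. Fgf9, a ligand with high affinity for Fgfr3 named after its values were seen, had no counts in the controls and 2 in each clone.

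The co-receptors Ncam1 and Cdh2, cell adhesion molecules that bind FGF receptors, were the tested genes among 10 co-receptors and FGF-binding proteins. Cdh2 had control counts of 45 and 93 against clone counts of 38 and 33 (log2 fold change -1.01, SE 0.29, edgeR, unadjusted p = 0.0032 and adjusted p = 0.0687). Ncam1 had 68 and 109 counts against 74 and 62, with a log2 fold change of -0.46 and an adjusted p of 0.461 from the same edgeR test. In CPM, both clones of Ncam1 lay under both controls (1092 and 1055 against 856 and 703 CPM), as in 21.5% of the 2438 tested genes.

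Among 25 heparan sulfate proteoglycans and enzymes, 5 were tested and their values pointed both ways. The syndecans Sdc1 and Sdc2, transmembrane carriers of heparan sulfate, had 9 and 15 counts against 40 and 27 and 11 and 8 counts against 26 and 23, with log2 fold changes of 1.40 (adjusted p = 0.0774 from edgeR) and 1.23 (adjusted p = 0.215 from edgeR). Of the lipid-anchored glypicans, Gpc4 had 26 and 35 counts against 14 and 10 (log2 fold change -1.43, adjusted p = 0.0687 from edgeR), and Gpc1 had 26 and 76 counts against 33 and 45 (log2 fold change -0.41). Hs3st1 and Agrn, both of this list, were named after their values were seen. Hs3st1, a heparan sulfate sulfotransferase, had 6 counts for clone A, 8 for clone B and none for the controls, and Agrn, the basement membrane proteoglycan agrin, had control counts of 5 and 11 and 1 in each clone.

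Of 21 adaptors and proximal effectors, 6 were tested. Shc1, an adaptor between receptor tyrosine kinases and Grb2, had 9 counts in each control, 24 for clone A and 38 for clone B (log2 fold change 1.66, SE 0.46, edgeR, adjusted p = 0.0549). Both clones were above both controls, as in 21.6% of the 2438 tested genes, and the adjusted p stayed just over the threshold. Plcg1, the phospholipase at the receptor, and the phosphatase Ptpn11 and the kinase Akt1 had log2 fold changes of -0.77, -0.50 and -0.53, and none of these met an unadjusted p of 0.05.

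In the Ras-MAPK cascade 5 of 13 genes were tested. Mapk3, which encodes the kinase ERK1, had control counts of 23 and 26 and clone counts of 15 and 12 (log2 fold change -0.97, edgeR, unadjusted p = 0.0387 and adjusted p = 0.299). Map2k1, which encodes the kinase MEK1, had a log2 fold change of 0.98 (95% interval -0.05 to 2.00, edgeR). Of 11 feedback inhibitors, Dusp6, the phosphatase of ERK, had 20 and 24 counts against 26 and 31. Its groups overlapped in CPM, at 321 and 232 CPM in the controls against 301 and 352 CPM in clones A and B. The log2 fold change of Dusp6 was 0.27 and its adjusted p 0.844 from edgeR. Spry2, a sprouty inhibitor, had 7 counts in each control against 5 and 14, with a log2 fold change of 0.32. Spry4, another sprouty inhibitor named after its values were seen, had 1 count in each control, 13 for clone A and 8 for clone B. Spry1, named in the same way, went in the other direction, with control counts of 2 and 6 and none in either clone.

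Among the 17 genes of the list of FGF-responsive transcription factors, which includes the target Ccnd1, 7 were tested, of which 6 had a higher and 1 a lower fitted value, with a median log2 fold change of 0.51 and no call. Ccnd1, the cyclin of the G1 phase, had 96 and 131 counts against 172 and 145 (log2 fold change 0.38), and Elk3, Jun and Fosl1 had log2 fold changes of 0.51, -0.22 and 0.01. Etv1, an Ets factor named after its values were seen, had control counts of 11 and 20, 48 for clone A and 17 for clone B, so that clone A alone was above the controls (log2 fold change 1.00, unadjusted p = 0.0492 from edgeR).

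**Figure D4:**
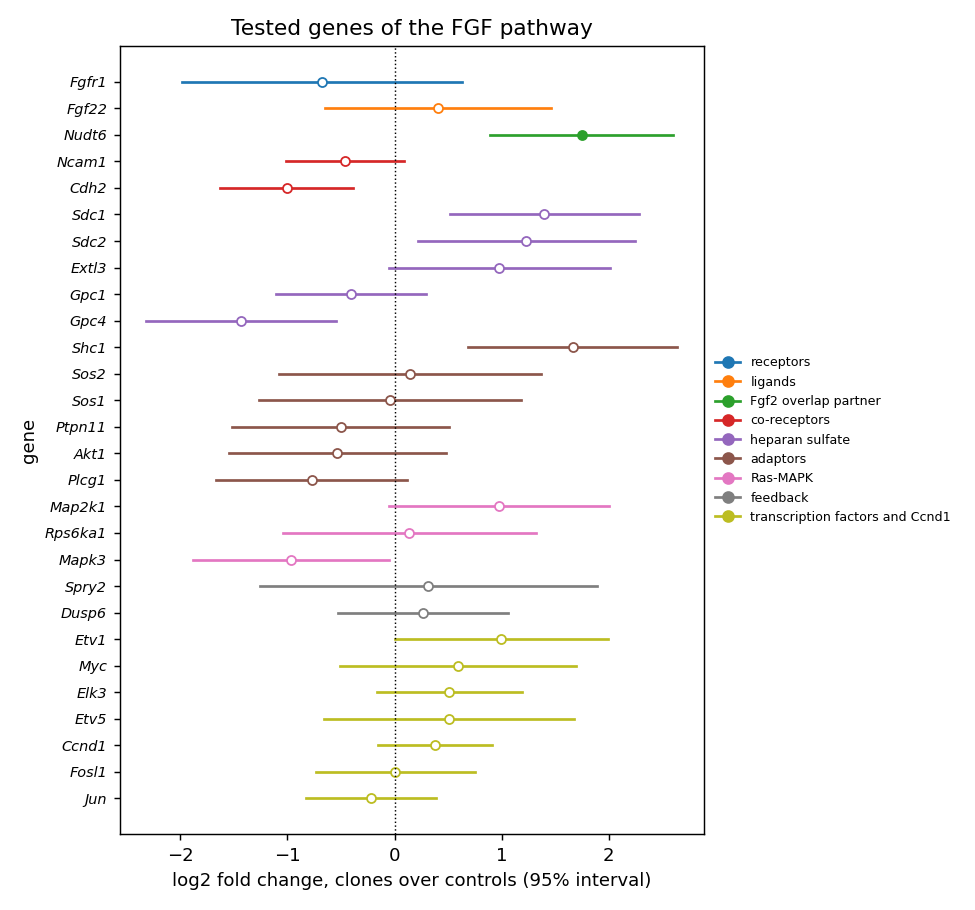
Log2 fold change of the clones over the controls with its 95% interval for tested genes of the FGF pathway lists, of which 2 are not shown, and for Nudt6, coloured by list, with filled points for an adjusted p of 0.05 or less. Nudt6 is the only filled point, and the intervals of Cdh2, Gpc4 and Mapk3 lie under 0 and those of Sdc1, Sdc2, Shc1 and Etv1 above 0 without passing the adjusted test.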

How the data were processed

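The data comprised 4 RNA-Seq libraries, 2 per genotype. Reads were aligned by the authors to rn5 using STAR (version 2.5.1), who deposited unnormalized HTSeq counts per gene symbol. The mean in their deposited table is a rounded score over all libraries, and the log2 fold changes, errors, Wald statistics and p-values of that table were not used. The test was glmQLFTest of edgeR 4.0.16 (R 4.3.3) after filterByExpr, TMM and glmQLFit, with condition only, on 2438 genes, and with DESeq2 1.42.0 as an alternative. Genes were called by a Benjamini-Hochberg adjusted p of 0.05 or less, or by an unadjusted p of 0.05 or less with a change of at least 2-fold. The edgeR test alone was also run on simulated counts, and the results of that run are not given here. Exact permutation of 2 against 2 samples cannot give a p under 0.333 and was not used. Counting intervals were computed by the Clopper-Pearson method in Python 3.11.15 with scipy 1.17.1. The genes described and all lists were chosen with earlier results of these data known. Named were all 10 genes, Sox10, the called genes and up to 4 further tested genes with the highest mean count per pathway list, and the 3 nearest profiles of each tested gene; 2 genes of the Ras-MAPK list are not reported here. Alternatives were other scalings and filters, a replicate block and leaving out each library; leaving out libraries over genes with at least 10 counts and the comparison with the authors' mean were added after seeing the data. Overlaps and sequences came from RefSeq on GRCr8 and were not matched to rn5 by position. Overlaps were looked for only among gene symbols held by both the deposited counts and the authors' table.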

Additional observations from a re-analysis of the deposited data

How the results depend on the processing

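With edgeR, 61 genes were called lower and 29 higher by the adjusted p. DESeq2 with its own size factors and filter called 36 and 14, the replicate block 28 and 14, and leaving out each library gave 2 to 70 and 0 to 39, with the lowest counts in the fit without control 2. Without a filter 47 genes were called higher, and with at least 10 counts in all 19. Of the FGF genes, 1 was called by the adjusted p (Nudt6), 0 with DESeq2, and 0 to 1 without each library. By the unadjusted p with a 2-fold change it was 1, where 6.97% of all 2438 genes were lower and 4.63% higher by this rule. It was 2 with DESeq2, without a filter and with at least 10 counts in all, where Fgfr3 could be tested. With at least 10 counts in all, 4.69% of 5964 genes were lower and 3.74% higher by this rule. Fgfr3 reached 10 counts only through the controls, so its call is a description. Over the other 10 settings, the call of Nudt6 was lost in 3 and that of Sox10 in 4, the direction of either in none. The call of Nudt6 was also lost in each of 4 fits, added after seeing the data, that left out a library over genes with at least 10 counts in all (edgeR adjusted p between 0.165 and 0.521). The replicate block gave Nudt6 a log2 fold change of 1.87 (adjusted p = 0.0459 from edgeR) and Sox10 an adjusted p of 0.125. The labels do not say that samples with the same number share a batch, and the deviations of the 2 pairs, which correlated at 0.12 over 2438 genes, do not decide it, so that the fit without the block was kept. The calls fell from 90 to 42 with the block. The median log2 fold change of all tested genes was -0.006 with TMM, 0.0001 with DESeq2's size factors and -0.023 with library totals. Why the settings differ was not tested. Without a filter, edgeR gave adjusted p-values of 0.895 for Fgf1 with 6 counts and 1 for Fgf7 with 2 counts, and Fgfr2, Fgfr4 and Fgf5 with 0 counts could not be tested.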
